A study of Mus musculus with 3 samples.

Results

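The VEGF ligand and receptor genes were 10 of the 19751 genes named by a probe on the arrays: Vegfa, Vegfb, Pgf, Vegfc, Vegfd (older symbol Figf), Flt1, Kdr, Flt4, Nrp1 and Nrp2. They were taken by gene symbol as the ligands, receptors and coreceptors of the pathway, with no measured value in the rule. The 10 genes were read by 13 probes, 7 of them by 1 probe and 3 by 2 probes, and all 13 probes were well above background on all 3 arrays, so all 10 members passed the filter on low values. The cells were described as primary endothelial cells cultured from the cavernous tissue of the C57BL/6 mouse penis, and the RNA of 3 numbered samples was pooled for each array. By their labels, 1 array held cells in normal glucose (5 mmol, the NG-labelled array), 1 held cells in high glucose (30 mmol, HG-labelled) and 1 held cells in high glucose (30 mmol) given an siRNA against Ninj1 (200 pmol, SI-labelled), each after 48 h. All groups shared a growth medium that held 20% serum, 0.5 mg/ml heparin and 5 ng/ml of vascular endothelial growth factor A protein itself. Whether a control siRNA was given to the other groups is not stated in the labels. The question the design puts is how high glucose alters gene expression in these cells and how the siRNA alters it further. With 1 array of pooled RNA per group there is no replicate check, no p-value is given, and "higher" and "lower" describe these arrays.

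Vascular endothelial growth factors are secreted dimers that bind receptor tyrosine kinases on endothelial cells. Vegfa binds Flt1 (VEGF receptor 1) and Kdr (VEGF receptor 2) and drives the growth and permeability of blood vessels, while Vegfb and placental growth factor, Pgf, bind Flt1. Vegfc and Vegfd are made as precursors, bind Flt4 (VEGF receptor 3) and are known for the growth of lymphatic vessels. Vegfc, once cleaved, also binds Kdr. The neuropilins Nrp1 and Nrp2 are coreceptors that bind both VEGF ligands and class 3 semaphorins. In cavernous tissue this pathway is known for the upkeep of the endothelium lining the blood spaces that fill at erection.

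The siRNA target Ninj1 went against the labels. Its single probe read 20413 (NG), 16291 (HG) and 25539 (SI), so it was brightest where its siRNA should be. The group words in the deposited file names also swap the HG and SI arrays, and with that exchange every direction below between those arrays turns. The arrays are therefore called by their labels throughout. Of 18 endothelial markers, 15 were well above background on at least 1 array, whereas Tie1, Erg and Emcn were not on any. Several of the 15 were dim on the HG-labelled array, with Pecam1 at 76.5, Vwf at 66.2 and Cldn5 at 21.3. Kdr at 7298 and Egfl7 at 3194 were brighter, and Sox17 was well above background on the SI-labelled array alone. All 12 fibroblast markers and 9 of 10 macrophage markers were above background as well, and the remaining macrophage marker, Cd68, had no named probe. Several fibroblast markers were very bright on the HG-labelled array, with Dcn at 432729, Col1a2 at 189258 and Thy1 at 121086, and the dimmest, Postn, read 118. Different probes cannot be ranked strictly by signal, but the cultures thus held strong stromal signals beside dim endothelial ones. Which cells gave the VEGF signals was not tested. Fewer cells of a type and less RNA per cell cannot be told apart in these pooled cultures.

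The VEGF genes lay close together on the HG- and NG-labelled arrays. None of the 10 members was 2-fold apart, against 1.51% of the 15081 genes compared (0.816% higher and 0.69% lower), or 0.469% of the 14491 genes measured on both arrays. On the log2 scale, after each array's 75th percentile was subtracted, the member differences ran from -0.22 for Flt4 to 0.10 for Vegfa, with a median of 0.02, and the median of all genes measured on both arrays was -0.01. For 6 of the 10 members the difference was below 0.08, the typical spread of a difference between 2 spots of a probe. That spread covers spot noise only and holds no culture or hybridisation error. Of the members outside it, Flt4 is too dim to be told apart, and Vegfa, Pgf and Nrp2 differed by 0.10, 0.09 and -0.08. Kdr is counted here by its brighter probe, at 0.01, whereas its dimmer, repeated probe differed by 0.22, outside the spread.

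**Figure D1:**
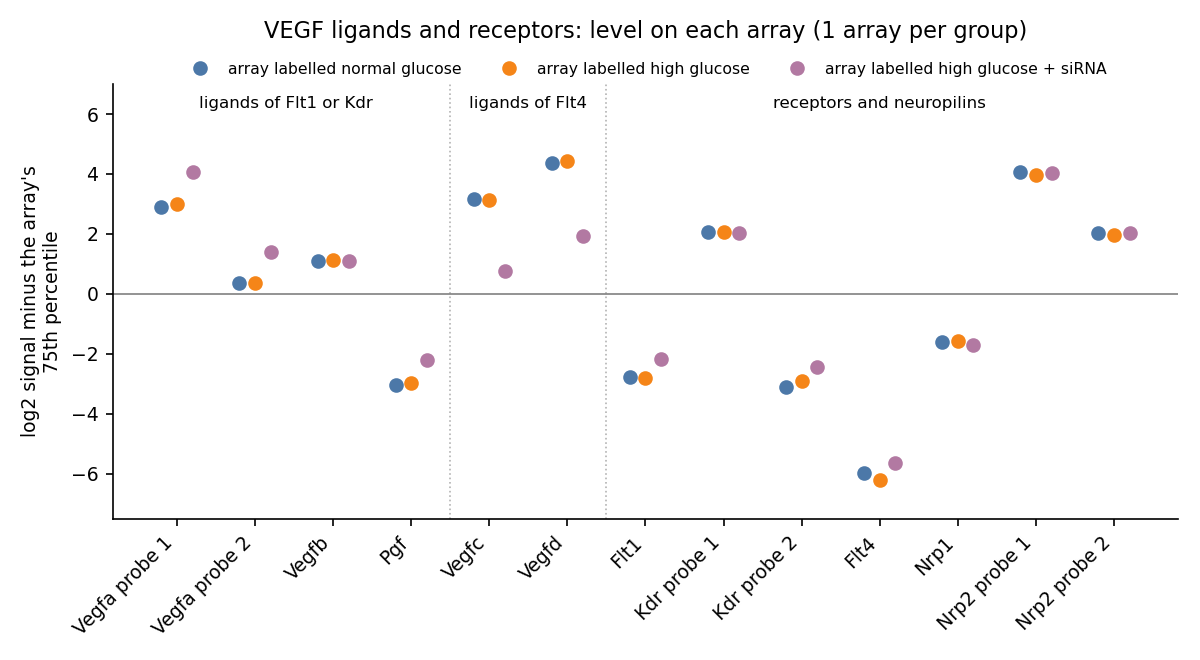
Level of each VEGF gene on each array (y axis, log2 processed signal minus the array's 75th percentile), with 1 point per array and probe; probe 1 is the brighter one, and levels of different probes cannot be set against each other. Vegfa lies higher and Vegfc and Vegfd lie lower on the SI-labelled array than on both other arrays.

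Among the members, the ligands held the large differences of the SI-labelled from the HG-labelled array. Vegfa was 2.09-fold higher, Vegfc 5.08-fold lower and Vegfd 5.68-fold lower, and no receptor or neuropilin reached 2-fold. These 3 of 10 members stand against 14.7% of all 15625 genes compared (6.52% higher and 8.21% lower), or 13.2% of the 14521 genes measured on both arrays. At a threshold of 1.5-fold, 6 of 10 members passed, against 30.1% of all genes compared. The dim Flt4, at 0.59 on the log2 scale, lay at that threshold itself. With normexp background correction Flt4 was at 0.06 and Flt1 at 0.40, both below 1.5-fold. The median over the 10 members was -0.002 on the log2 scale and that over all genes 0.01, since the members lay on both sides.

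Among the ligands of the blood vessel receptors, Vegfa was read by 2 probes designed on different transcripts. Processed signals of the brighter probe were 13318 (NG), 13822 (HG) and 33778 (SI). Those of the other were 2304, 2206 and 5332 in the same order. The SI-labelled array was high on both probes while the other arrays were alike. After scaling, the log2 difference from the HG label was 1.06 and 1.05 on the 2 probes, where spots of equally bright repeated probes differed by a typical 0.06 and 0.07. Vegfa stood close to the 2-fold line: quantile normalization put its log2 difference at 0.99 and cyclic loess at 0.96. Against the NG label it was 1.16 and 1.03 on the 2 probes.

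Pgf, a ligand of Flt1 that also frees Vegfa for Kdr, read 214 (NG), 222 (HG) and 433 (SI). It followed the direction of Vegfa without reaching 2-fold, at 1.67-fold higher than on the HG-labelled array (log2 difference 0.74). Vegfb, linked to fatty acid handling and cell survival more than to vessel sprouting, read 3804 (NG), 3782 (HG) and 4288 (SI). Its raw signal was 1.13-fold higher under the SI label, but scaling turned this into a log2 difference of -0.05, within the 0.07 of spot noise at its level. Vegfb was therefore not told apart between the arrays.

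The ligands of Flt4 were the VEGF genes with the largest differences. Vegfc read 15842 (NG), 15049 (HG) and 3469 (SI), from 1 spot each. Its log2 difference between the SI and HG labels was -2.34, and -2.38 against the NG label. Vegfd was printed 10 times on each array and all its spots were used, but they are repeats of 1 probe, with no other probe to check it. Its spots ran from 34237 to 40439 with a median of 37109 under the NG label, from 35536 to 40309 with a median of 36651 under the HG label, and from 7030.4 to 8341 with a median of 7624 under the SI label. The spots of the SI-labelled array lay apart from all others, whereas those of the other arrays overlapped. The log2 difference between the SI and HG labels was -2.51, with a standard error of 0.03 over spots that covers no error between cultures. Among the 14521 genes measured on both arrays, Vegfd was the 112th lowest and Vegfc the 137th lowest, and Vegfa was the 771st highest.

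**Figure D2:**
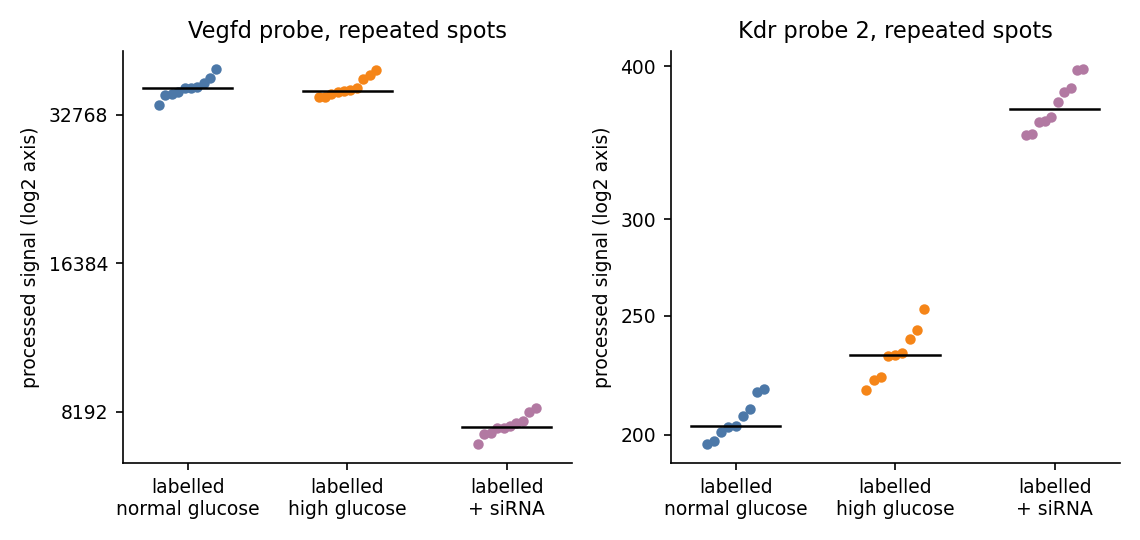
Processed signal (y axis, log2 axis) of each repeated spot of the Vegfd probe and of Kdr probe 2 on the 3 arrays, with a bar at the median; spots of 1 array are technical repeats of 1 pooled RNA. The Vegfd spots lie between 7030.4 and 8341 on the SI-labelled array and at 34237 or more on the others, and the Kdr spots lie highest on the SI-labelled array.

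Vegfa and the 2 Flt4 ligands differed in opposite directions, and their upstream sequences are shown for comparison. They are the 250 bases before the start given by RefSeq on GRCm38.p6, and the arrays do not read promoter activity. The windows are chr17:46032378-46032627 on the minus strand for Vegfa, chr8:54077282-54077531 on the plus strand for Vegfc and chrX:164373272-164373521 on the plus strand for Vegfd. Capitals mark matches on either strand to the GC box GGGCGG, the TATA box TATAAA or the SMAD motif CAGAC, which overlap in Vegfa.
Vegfa: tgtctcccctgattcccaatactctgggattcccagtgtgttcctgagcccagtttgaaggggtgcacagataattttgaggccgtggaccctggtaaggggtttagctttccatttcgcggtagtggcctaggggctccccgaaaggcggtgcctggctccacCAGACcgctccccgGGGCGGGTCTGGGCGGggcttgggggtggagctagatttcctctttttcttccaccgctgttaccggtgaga
Vegfc: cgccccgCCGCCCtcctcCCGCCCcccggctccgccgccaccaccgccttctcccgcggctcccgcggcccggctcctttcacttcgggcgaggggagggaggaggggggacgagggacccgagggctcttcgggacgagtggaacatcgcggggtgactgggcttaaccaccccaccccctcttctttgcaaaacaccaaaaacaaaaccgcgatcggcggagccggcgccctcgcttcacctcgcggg
Vegfd: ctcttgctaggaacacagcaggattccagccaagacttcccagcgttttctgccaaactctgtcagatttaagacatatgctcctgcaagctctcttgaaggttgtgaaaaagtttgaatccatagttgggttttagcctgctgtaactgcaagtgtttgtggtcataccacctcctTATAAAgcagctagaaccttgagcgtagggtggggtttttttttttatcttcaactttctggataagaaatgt
Vegfc and Vegfd, which were lower together, differed in these windows. Vegfc held 2 GC boxes, 71.6% G and C and 30 CpG pairs, whereas Vegfd held no GC box, 42.4% G and C, 2 CpG pairs and a TATA box at position -73 from the start. Vegfa held 2 GC boxes and 2 SMAD motifs at 59.2% G and C. A GC box was present in 9 of the 10 members and in 32.7% of 32851 promoter windows, a TATA box in 2 members and 12.4% of windows, and the SMAD motif in 1 member and 42.2% of windows. None of the 10 member windows held ACGTG, 1 form of the HIF core (16.6% of windows), the AP-1 motif TGANTCA (6.75%), the TEAD motif GGAATG (12.6%) or the STAT motif TTCNNNGAA (7.02%). This says only that these letters are not in the 250 bases searched. The HIF core also takes the form GCGTG, which was not searched for and is in the Kdr window, among others.

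Set side by side, Vegfa and Pgf were higher and both lymphatic ligands lower under the SI label, with Vegfb between them. The median log2 difference was 0.74 over Vegfa, Vegfb and Pgf and -2.42 over Vegfc and Vegfd, a gap of -3.17. Between the HG and NG labels the same medians were 0.09 and 0.01, a gap of -0.08. In both comparisons the median over Vegfa, Vegfb and Pgf was the value of the dim Pgf. For the SI against the HG label Vegfa was at 1.06 and Vegfb at -0.05. Ratios within an array do not depend on the scaling constant. The signal of Vegfa over Vegfc shifted by 3.41 on the log2 scale and that of Vegfa over Vegfd by 3.57, or 10.6-fold and 11.9-fold toward Vegfa, from the HG to the SI label. For the other ligands of Flt1, Pgf over Vegfd shifted by 3.25 and Vegfb over Vegfd by 2.46. By contrast Vegfc over Vegfd shifted by 0.16, so the 2 lymphatic ligands kept nearly the same ratio to each other. The medians over 2 or 3 genes are descriptions, since genes are not replicates.

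**Figure D3:**
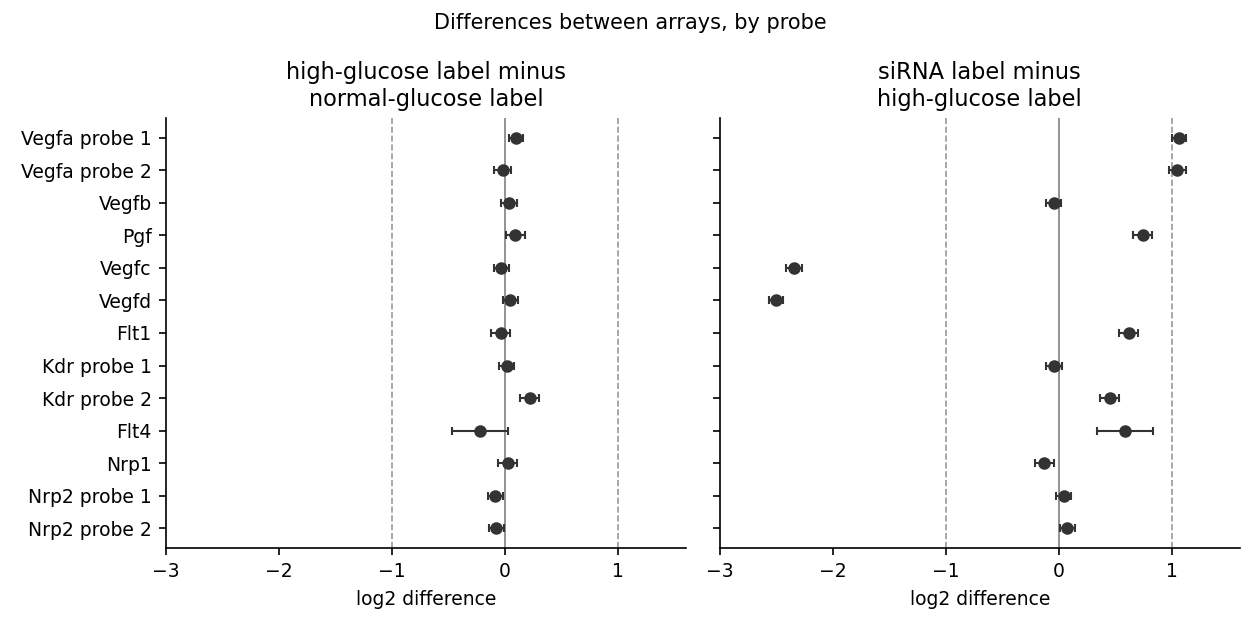
Log2 difference of each member probe (x axis) between the HG and NG labels (left) and the SI and HG labels (right), with bars of 1 SD of a difference between 2 spots at that brightness and dashed lines at 2-fold. All probes lie between -0.22 and 0.22 on the left, and on the right Vegfc and Vegfd lie at -2.34 and -2.51 against 1.06 for Vegfa.

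Several markers of stromal cells were also lower on the array where the Flt4 ligands were lower. In the comparison of the SI with the HG label, 8.21% of all genes compared were lower and 6.52% higher by 2-fold or more. Of the 12 fibroblast markers, 6 were lower by 2-fold or more on the SI-labelled than on the HG-labelled array and none was higher by as much, with a median log2 difference of -1.08. The 6 were dermatopontin, Dpt, at -3.08, the proteoglycan Lum at -2.76, the fibulin Fbln1 at -2.19, the collagens Col3a1 at -1.90 and Col1a1 at -1.48, and periostin, Postn, at -1.39. Sums over the markers of a list that were well above background are given here relative to each array's 75th percentile, and the fibroblast sum was 824 (NG), 827 (HG) and 619 (SI). Of 11 smooth muscle and pericyte markers compared, 4 were lower (Acta2 at -2.33, Pdgfrb at -1.53, Cnn1 at -1.34 and Tagln at -1.13) and 1 was higher, Cspg4 at 1.24, with Kcnj8 just under 2-fold higher. Their median was -0.31 and their sum 58.8 (NG), 59.5 (HG) and 32.8 (SI). Of 9 macrophage markers, 3 were lower (Adgre1 at -2.06, Lyz2 at -2.05 and Ptprc at -1.25) and 1 was higher, Cd14 at 1.52, with a median of -0.07. Their sum was 19.3 (NG), 18.7 (HG) and 20.1 (SI), and Cd14 was the only macrophage marker whose scaled level was higher by 2-fold or more. Of 6 epithelial markers, 2 were higher and none lower, with a median of 0.52. Of 15 endothelial markers, which include Kdr and Flt1, 3 were higher and 4 lower around a median of 0.12, and their sum, most of it from Kdr and Egfl7, was 6.86 (NG), 6.92 (HG) and 8.31 (SI). Of 5 lymphatic endothelial markers, which include Flt4, none was higher and 1, Stab2, was lower. Their median, 0.59, was the value of the dim Flt4 itself, so it is no reading apart from the VEGF members. The part of these cell types in the Vegfc and Vegfd differences was not tested.

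The receptor tyrosine kinases stayed within 2-fold. Flt1, which binds Vegfa tightly and whose soluble form acts as a decoy, read 261 (NG), 248 (HG) and 444 (SI). It was 1.53-fold higher under the SI label than under the HG label (log2 difference 0.62, against spot noise of 0.08). Its direction was that of Vegfa and Pgf, and the ratio of Pgf to Flt1 shifted by 0.12.

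Kdr, the main signalling receptor for Vegfa, was read by 2 probes of the same transcript that did not give the same answer. The brighter probe, with 1 spot, read 7440.0 (NG), 7298 (HG) and 8278 (SI), a log2 difference of -0.05 between the last 2. The dimmer probe was printed 10 times, of which 9, 9 and 10 spots were used, and ran from 196 to 218 (NG), from 217 to 253 (HG) and from 351 to 398 (SI). All its SI-label spots lay above those of the other arrays, and its log2 difference was 0.45 with a standard error of 0.03 over spots. It also differed by 0.22 between the glucose labels, where the brighter probe differed by 0.01. Neither probe reached 2-fold, and which of them reads Kdr more truly cannot be told from these files.

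Flt4, the receptor of Vegfc and Vegfd and a marker of lymphatic endothelium, was the dimmest member. It read 27.98 (NG), 23.3 (HG) and 40.9 (SI), where the scanner software put the error at 4.54, 4.13 and 4.93. The log2 difference between the SI and HG labels was 0.59, larger than the 0.25 by which spots of so dim a probe typically differed, but it was 0.06 with normexp background correction. The difference of -0.22 between the glucose labels lay within the spot noise and was 0.03 with normexp. The direction of Flt4 between the SI and HG labels is thus not firm. The ratio of Vegfd to Flt4 shifted by -3.09 and that of Vegfc to Flt4 by -2.93. Most of each shift came from the ligand, with Vegfd at -2.51 and Vegfc at -2.34. Of the 8 lymphatic endothelial markers, Pdpn, Ccl21a, Stab2 and Flt4 itself were well above background on all 3 arrays, and Prox1, Reln and Mmrn1 were not on any. Between the SI and HG labels Pdpn was at 0.20, Ccl21a at 0.66 and Stab2 at -1.05. Lyve1 was well above background on the SI-labelled array alone.

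The neuropilins were close to level across the arrays. Nrp1, the coreceptor of Kdr for Vegfa, read 587 (NG), 579 (HG) and 619 (SI), a log2 difference of -0.13 between the last 2. Nrp2, the coreceptor of Flt4, was read by probes for 2 transcripts, with 29688, 27195 and 32752 on one and 7336, 6761 and 8336 on the other. Their log2 differences between the SI and HG labels were 0.04 and 0.08, and that of the brighter probe became -0.04 after quantile normalization and -0.08 after cyclic loess. A direction for Nrp2 therefore depends on the scaling.

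**Figure D4:**
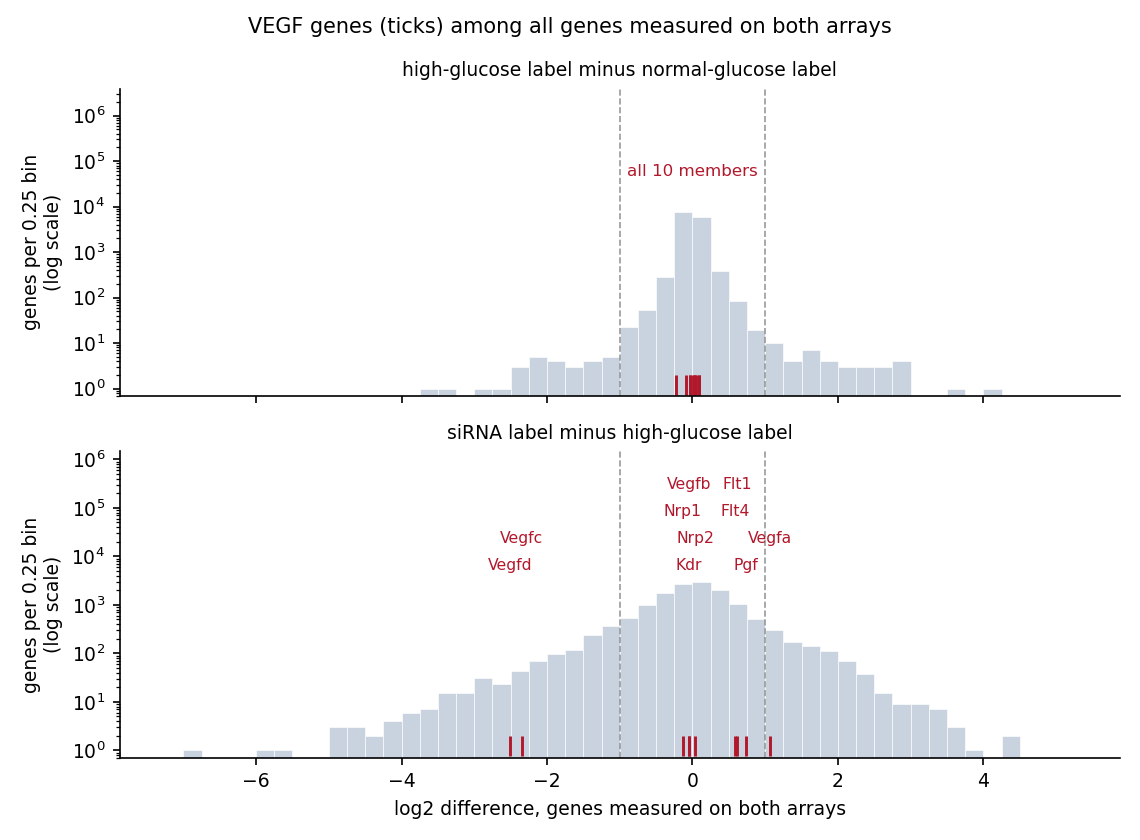
Number of genes per bin of log2 difference (y axis, log scale) for all genes measured on both arrays, with the 10 VEGF genes as ticks and dashed lines at 2-fold, for the HG against the NG label (top, 14491 genes) and the SI against the HG label (bottom, 14521 genes). Vegfc and Vegfd lie in the lower tail of the bottom panel.

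Against the NG-labelled array, the SI-labelled array gave the VEGF genes values like those above. These comparisons share the SI-labelled array, so the values are given side by side only. The log2 differences were 1.16 for Vegfa, 0.83 for Pgf, 0.58 for Flt1, -2.38 for Vegfc and -2.46 for Vegfd. The members past 2-fold were again 3 of 10, where 14.3% of 15581 genes were (6.35% higher and 7.93% lower).

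Genes around the pathway were taken from 10 lists, with the members themselves left out. In the comparison of the HG with the NG label, no gene of any of these lists was 2-fold apart, against 1.51% of all genes compared. For the SI against the HG label, 6.52% of all 15625 genes compared were higher and 8.21% lower by 2-fold or more. Under the SI label, genes that VEGF induces in endothelial cells were higher more than lower: of 20 compared with the HG label, 8 were higher and 2 lower by 2-fold or more, with a median log2 difference of 0.66. The urokinase gene Plau was at 2.43, the nuclear receptor Nr4a1 at 2.32, the tip cell marker Esm1 at 2.15 and the adhesion molecule E-selectin, Sele, at 2.08. The urokinase receptor Plaur was at 1.81, Nr4a2 at 1.38 and the calcineurin regulator Rcan1 2.31-fold higher, and the phosphatase gene Dusp5, not well above background on the HG-labelled array, was at least 4.55-fold higher. Sele was dim, reading 31.1 (HG) and 154 (SI). The adhesion gene Icam1 (-1.55) and tissue factor, F3 (-1.06), went the other way, although VEGF induces them too.

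Of 17 genes in a list of VEGF decoys and inhibitors, 7 were lower by 2-fold or more under the SI than the HG label. None was higher by as much and 10 stayed within 2-fold, with a median of -0.78. Of all genes compared, 8.21% were lower and 6.52% higher by 2-fold or more. The list is broad, and not every gene in it acts on VEGF itself. The receptor tyrosine kinase inhibitor Spry1 was at -3.23, the metalloproteinase inhibitor Timp3, which blocks Kdr, at -3.23, the VEGF-binding matricellular gene Ccn2 at -2.90 and thrombospondin 1, Thbs1, at -2.13, with Ccn1 (-1.59), Ptx3 (-1.51) and Sparcl1 (-1.02) nearer the threshold. Vash2 was just under 2-fold higher and passed 2-fold against the NG label, at 1.13, and Spry4 was at 0.40. Of 9 genes that process Vegfc and Vegfd or present them, none was higher and 2 were lower, around a median of -0.22. These were Svep1, a matrix protein needed for lymphatic vessels, at -3.38, and the protease that activates Vegfc, Adamts3, at least 2.97-fold lower. Adamts3 has only a bound because it was not well above background on the SI-labelled array. It was dim on the other arrays too, reading 24.9 (NG) and 29.7 (HG).

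Genes that control Vegfa expression were mostly within 2-fold between the SI and HG labels, where 6.52% of all genes were higher and 8.21% lower. Of 19 compared, none was higher by 2-fold or more and only Epas1, encoding the hypoxia-inducible factor HIF-2 alpha, was lower, at -1.73, with its other probes at -0.22 and -0.58. The median was -0.02. Of 19 hypoxia targets other than Vegfa, Car9 was 2-fold higher and Adm lower by 1.76 on the log2 scale, and the median was 0.28. Intracellular signalling genes were level, with 2 of 40 higher, Prkcb and Ptgs2, and 2 lower, Rac2 and Nfatc2, around a median of 0.10.

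Partners of the receptors and neuropilins went both ways between the SI and HG labels, where 6.52% of all genes were higher and 8.21% lower by 2-fold or more. Of 12 semaphorin and plexin genes, 2 were higher and 3 lower (median -0.11), with Plxnd1 at 1.06 and Sema3a, which competes with Vegfa for Nrp1, at 1.02, and with Sema3c at -1.28 and Sema3f, a ligand of Nrp2, at -1.41. The third lower gene, Sema3d, was not well above background on the SI-labelled array and was at least 8.41-fold lower, the largest difference in that list. Of 19 modulators of VEGF receptors, vascular cadherin, Cdh5, was higher at 1.51 and the endocytic adaptor Epn2 was lower at -1.13, with a median of -0.17. Of 13 lymphatic endothelial genes, Fxyd6 was higher at 1.69, and Stab2 (-1.05) and the adrenomedullin scavenging receptor Ackr3 (-1.56) were lower, around a median of 0.19. Of the 9 PDGF family relatives, Pdgfrb alone was lower, at -1.53, and none was higher, with a median of -0.37.

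**Figure D5:**
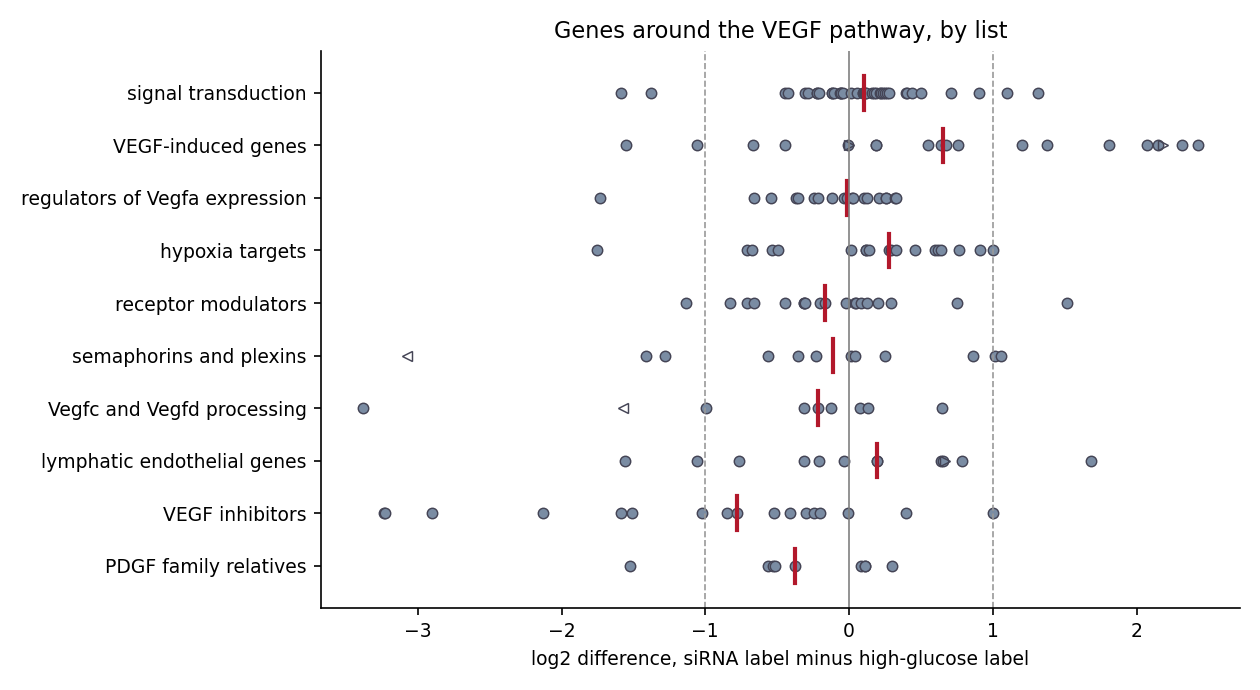
Log2 difference between the SI and HG labels (x axis) of each gene in 10 lists around the VEGF pathway; circles are measured on both arrays, open triangles are lower bounds on a difference, red bars are list medians and dashed lines mark 2-fold. VEGF-induced genes have the highest median, 0.66, and the broad list of VEGF inhibitors has the lowest, -0.78.

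Likeness of pattern was read from the 2 differences, HG minus NG and SI minus HG, over 3 arrays and 14359 genes. Nearest to Vegfa were Slc22a23 and St8sia1, at distances of 0.008 and 0.01 on the log2 scale, among 95 genes within 0.1 of it on both differences. Nearest to Vegfc were Slc24a3 and Slc1a6, at 0.03 each, and nearest to Vegfd were Cygb at 0.03 and Vnn3 at 0.04, with 13 genes within 0.1 in either case. With 3 arrays many genes share a pattern, so these neighbours describe likeness only.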

How the data were processed

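Gene expression was measured in 3 pooled RNA samples, 1 array per group. Per the file headers, the authors' deposited Cy3 spot intensity is background-subtracted output of Agilent Feature Extraction 11.0.1.1. The authors' series value table also holds linear intensity and equalled the processed signal to within 0.1% for 100% of 39030 single-spot probes, with column medians of 118 (NG), 118 (HG) and 129 (SI), so it is not centred. How repeated spots were combined there is unknown.

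Outlier-marked spots (109 NG, 147 HG and 107 SI) were dropped, log2 signals were averaged per probe, and each array's 75th percentile was subtracted. No spot was saturated, and between 67.0% and 70.6% of the 39429 probes were well above background. Probes were named by accession through RefSeq GRCm38.p6 (66.1% named). The brightest probe well above background on at least 1 array stood for a gene, and a call means at least 2-fold. A gene dim on 1 of 2 arrays has only a lower bound: its bright value is set against its dim value or that array's detection floor (the lowest signal well above background), whichever is larger. Named by rule are all members, up to 4 genes per pathway list by size of the difference measured on both arrays (bounds are not ranked), and the 2 nearest patterns. Other list genes and the cell type markers given by name were chosen after their values were seen. The 10 pathway and 6 marker lists and the members were chosen with earlier results of these data known. Python 3.11.15 and limma 3.58.1 were used, and the steps were tested on simulated data. Having 1 array a group limits the precision. Alternatives were other scalings, normexp (offset 50), the value table, filters on dim probes, the mean over probes, 1.5-fold and 3-fold thresholds, and swapping the HG and SI labels. Reading Kdr by its repeated probe was added after the data were seen.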

Additional observations from a re-analysis of the deposited data

How the results depend on the processing

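With 1 array per group no replicate could be left out. No paired analysis was possible because each group has a single array. Without the exchange of the 2 high-glucose arrays, Vegfc stayed between -2.42 and -2.33 and Vegfd between -2.62 and -2.49 on the log2 scale for the siRNA against the high-glucose label, over 9 settings each. Vegfa stayed at 0.96 or above, below 2-fold with quantile normalization and cyclic loess.

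The gap of lymphatic minus blood ligands for the siRNA label against high glucose and normal glucose was -3.29 and -3.34 with quantile normalization, -3.29 and -3.35 with cyclic loess, and -3.03 and -3.06 with normexp. Exchanging the arrays turned the former to 3.17, Vegfa to -1.06, Vegfc to 2.34 and Vegfd to 2.51. It gave the siRNA against the normal-glucose label a gap of -0.083, a Vegfd difference of 0.046 and 0 members past 2-fold, and the high-glucose against the normal-glucose label a gap of -3.25 and 3 members. At 1.5-fold, 6 members passed for the siRNA against the high-glucose label, against 30.1% of all genes. Of these, Flt4 lay at the threshold itself, and Flt1 was at 0.40 with normexp, below the threshold. Kdr was at 0.20 with the mean of its probes and at 0.45 with its repeated probe. Flt4 was at 0.06 with normexp, which adds an offset of 50 to every signal, more than the Flt4 signal itself.

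Counts over all genes, higher and lower, moved with the filter on dim probes between the glucose labels, and by under 1.5 times with it in the comparisons of the SI label. Between the glucose labels they were 123 and 104, but 43 and 33 with normexp, 35 and 26 with probes above background on every array, 433 and 329 without a filter, 229 and 187 at 1.5-fold, and 990 and 1236 after the exchange. For the siRNA against the high-glucose label they were 1018 and 1283, with 858 and 1026 under the stricter filter and 1438 and 1704 without one, but 619 and 783 with normexp, 2237 and 2460 at 1.5-fold and 409 and 524 at 3-fold. For the siRNA against the normal-glucose label they were 990 and 1236, but 605 and 769 with normexp, 2148 and 2405 at 1.5-fold, 393 and 508 at 3-fold, and 123 and 104 after the exchange.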
